A study of Homo sapiens with 8 samples.

Results

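The genes described here code for the small-subunit processome, the nucleolar machine that builds the small ribosomal subunit, and for the proteins of the box C/D and box H/ACA small nucleolar ribonucleoprotein particles (snoRNPs). They were chosen by name, as 46 symbols out of the 19414 genes in the deposited tables, and the rule that names them uses no measured value. Earlier results of these data were known when the set was chosen. All 46 passed the filter on low values, against 9673 of all genes. Total RNA from U2OS, an established line of human osteosarcoma cells, was sequenced in 4 groups of 2 libraries. WT cells carry neither factor, MYC cells overexpress the transcription factor MYC, Zab cells carry Zab, and Zab+MYC cells carry Zab and overexpress MYC. In general use Zab names a pair of domains of ADAR1, an enzyme that edits RNA, which bind left-handed nucleic acid. How either factor was introduced, and whether a line is a clone, was not given in the sources used here. By its title the series concerns MYC, FACT (a histone chaperone) and Z-DNA, a left-handed form of DNA, and the comparisons ask how MYC changes transcription when Zab is absent or present.

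The small-subunit processome assembles on the nascent ribosomal RNA precursor while RNA polymerase I is still transcribing it. The UTP-A and UTP-B complexes and the U3 snoRNP bind early, the precursor is then cut and folded, and a further set of factors escorts the particle through export and final trimming. Box C/D particles direct methylation of ribose in ribosomal RNA and box H/ACA particles direct pseudouridine formation. Ribosome assembly genes are a widely described class of MYC targets, and MYC with its partner MAX binds the E-box CACGTG.

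The E-box was looked for in the promoters of these genes because it is the site that MYC is known for. RefSeq promoter windows on GRCh38, from 250 bases before to 50 after each annotated start, were at hand for 39 of the 46 genes. RRP12, NAF1, DCAF13, TCOF1, NOLC1, MPHOSPH10 and NOP58 had no entry. The sequence CACGTG is its own reverse complement, so a search of either strand covers both. It occurred in 18 of the 41 windows of these genes (43.9%), which belonged to 18 genes. It occurred in 9.74% of the 11594 windows of all tested genes and in 7.26% of all 35116 windows of the same length. Of the 21 boxes found, 17 lay within 50 bases of the start. The windows end 50 bases after the start, so every box after it is among these by construction. The windows below span at most 30 bases on the gene's own strand, read 5′ to 3′, with the E-box in capitals. They are shown for a choice of genes whose levels are described further on.
UTP4, chr16:69132621-69132650 (+): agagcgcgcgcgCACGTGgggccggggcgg
WDR43, chr2:28894658-28894687 (+): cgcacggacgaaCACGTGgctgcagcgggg
UTP18, chr17:51260538-51260567 (+): gcagcgaggttcCACGTGagcgcctgcgtt
RRP9, chr3:51941892-51941921 (−): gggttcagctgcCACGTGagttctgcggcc
NOP14, chr4:2963374-2963403 (−): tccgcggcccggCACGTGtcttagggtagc
LTV1, chr6:143843354-143843383 (+): gtcctggggctgCACGTGtggtgaggccta
FBL, chr19:39846356-39846385 (−): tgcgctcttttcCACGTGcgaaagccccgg
NOP10, chr15:34343289-34343318 (−): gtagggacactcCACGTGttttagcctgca
NOP10, chr15:34343130-34343159 (−): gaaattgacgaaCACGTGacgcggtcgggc
GAR1, chr4:109815781-109815810 (+): gggccagaggggCACGTGgcgccggtgagt
WDR46, chr6:33289190-33289210 (−): agaggagttttgCACGTGgat
The box began 5 bases before the start in RRP9 and at base 4 of the annotated transcript in WDR43. NOP10 was 1 of 3 genes with a pair of boxes, and its box nearer to the start began 11 bases before it. Among the 39 genes with an entry, those with a box did not stand above those without in their response to MYC. The 7 genes with no entry, NOLC1 and RRP12 among them, are left out of this. Whether a box bears on the response was not tested. The median log2 difference of MYC against WT was 1.64 over the 18 genes with a box (range 0.25 to 2.64) and 1.68 over the 21 without (range 0.41 to 2.27). The gene with the largest and the gene with the smallest of the 39 responses, WDR43 and WDR46, both hold a box. A match in a window is a description of the letters there and shows no binding.

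The libraries held 686992 to 1326166 exon tags. The share of tags in exons was 60.8% in Zab, 69.1% in Zab+MYC, 70.9% in WT and 76.0% in MYC, each with an SD of at most 0.342 over 2 libraries. MYC stood at 72.6 and 94.8 CPM (counts scaled to a fixed library total) in WT, 230 and 194 in Zab, 707 and 705 in Zab+MYC, and 1237 and 1290 in MYC. Overexpressed MYC was thus 1.79-fold lower where Zab was present, and Zab cells without it had 2.51-fold more MYC than WT cells. ADAR, whose values include any Zab transcript that matches it, averaged 267 CPM in WT cells and 239 in MYC cells, against 6100 in Zab and 1043 in Zab+MYC, so the 2 groups labelled Zab differed by 5.84-fold. Markers of the labelled cell type moved with the groups. The 10 genes of the osteosarcoma and osteoblast list summed to 10109 and 10305 CPM in WT, 8489 and 8907 in Zab, 7630 and 7752 in Zab+MYC, and 5317 and 5478 in MYC. The mesenchymal marker VIM made up most of this, at 4805 to 7308 CPM. COL1A1 averaged 1140 CPM in WT, 802 in Zab, 225 in Zab+MYC and 116 in MYC, and SPARC 1849, 1294, 648 and 382 CPM in the same order. SPP1 averaged 13.8 CPM in WT and 0.864 in MYC, and COL1A2 and IBSP had at most 1 tag in any library. The 5 genes of the epithelial list summed to 1085 to 1139 CPM in MYC, 1530 to 1697 in WT and Zab, and 2152 to 2172 in Zab+MYC. Of these KRT8 averaged 1002 CPM in WT, 284 in MYC and 782 in Zab+MYC, and KRT18 623, 825 and 1378 CPM, while EPCAM had at most 4 tags and CDH1 at most 1. The part of these markers in the results below was not tested. Markers of blood and of endothelium summed to at most 5.5 tags in any library. The values are of bulk RNA, in which fewer cells with a transcript and less of it per cell cannot be told apart.

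The genes as a set took up most room in MYC and least in WT. Their tags made up 0.364% and 0.367% of exon tags in WT, 0.543% and 0.554% in Zab, 0.819% and 0.821% in Zab+MYC, and 1.07% and 1.08% in MYC. Group means rose in that order, WT below Zab below Zab+MYC below MYC, for 42 of the 46 genes, an order that 18.0% of all tested genes showed. For 30 genes the 8 libraries also separated fully in this order, against 6.93% of tested genes. On the scale as deposited, where the whole of Zab lies lower, 28 of the 42 genes kept the order and NOP10 took it up. There 16 of the 46 had their lowest mean in Zab, and 44 had their highest mean in MYC on both scales. Shares of all tested genes were not counted for these, so the counts have no general rate beside them. On the deposited scale 49.3% of all tested genes were called lower in Zab than in WT. The 4 exceptions with TMM scaling were WDR46, EMG1, NOP10 and NAF1. MYC itself was ordered in the same way with TMM scaling. Its part in the order of the 46 genes was not tested, and the amount of MYC cannot be told apart from the presence of Zab in these groups.

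**Figure D1:**
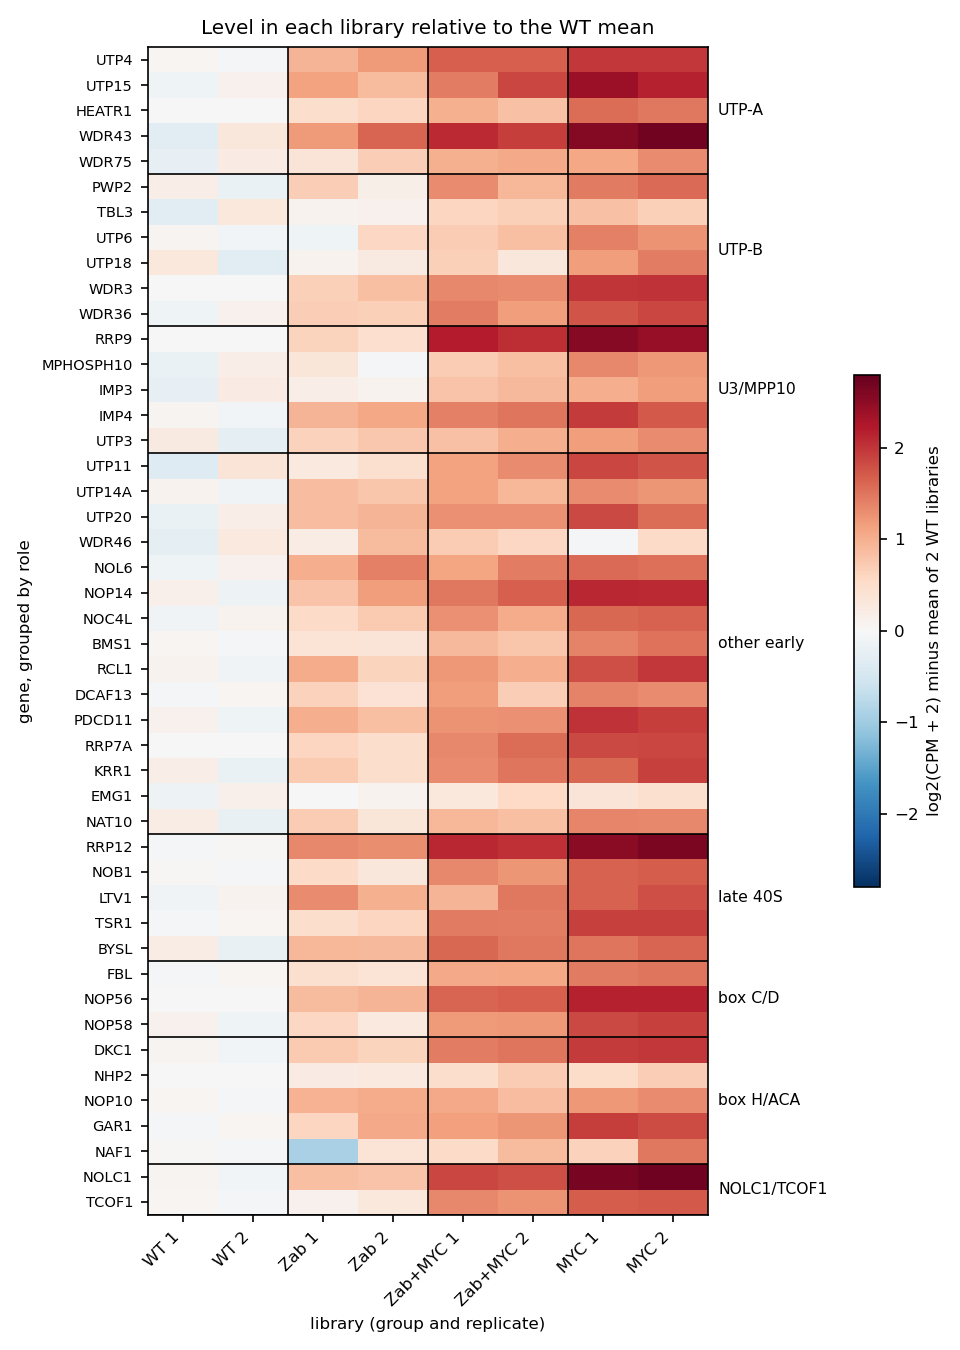
Heat map of log2(CPM + 2) minus the mean of the 2 WT libraries, with the 46 genes in rows grouped by role and the 8 libraries in columns. The 2 MYC libraries are the darkest red in most rows, and Zab+MYC lies between Zab and MYC. On the scale as deposited the mean of Zab lies below that of WT for 16 of the 46 genes. The share of all tested genes for which it does was not counted.

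Without Zab, nearly the whole set was higher where MYC was overexpressed. Of the 46 genes, 45 were called higher in MYC than in WT and none lower, by limma with an adjusted p under 0.05, where 27.8% of all tested genes were called higher and 30.4% lower. The median log2 difference was 1.69 (range 0.25 to 2.69), a 3.22-fold rise, against −0.04 over all tested genes. The libraries of the 2 groups did not overlap for 45 genes, with MYC higher, against 37.6% of tested genes. WDR46 was the exception in both counts. The calls held under every alternative for 43 genes, and those of EMG1 and NAF1 did not.

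The UTP-A complex, also called t-UTP because part of it is needed for ribosomal DNA transcription, rose in every member included in the set. All 5 members were called higher in MYC than in WT, with a median log2 difference of 1.98. WDR43 (chromosome 2, 29117533 to 29171085 on hg19, as the deposited tables give it) had the largest change of the complex. It stood at 39.1 and 61.5 CPM in WT, 115 and 155 in Zab, 214 and 194 in Zab+MYC, and 301 and 332 in MYC. No 2 groups overlapped. MYC exceeded WT by log2 2.64 ± 0.14 (SE, limma adjusted p = 3e-27), a 6.22-fold rise. UTP4, also known as cirhin (chromosome 16, 69166499 to 69202937), stood at 136 and 127 CPM in WT, 256 and 300 in Zab, 422 and 422 in Zab+MYC, and 522 and 521 in MYC. Its groups were again separate, and its rise with MYC was 3.93-fold (log2 1.98 ± 0.092, limma adjusted p = 7.9e-31). UTP15 was scarce, at 6.31 and 7.95 CPM in WT, 17.9 and 14.7 in Zab, 22.4 and 31.2 in Zab+MYC, and 45.8 and 38.5 in MYC. It had 179.5 tags over all 8 libraries, and its 4.84-fold rise carries a larger error (log2 2.27 ± 0.32, limma adjusted p = 3.5e-09). WDR75 changed least in the complex, from 37.9 and 53.5 CPM in WT to 98.1 and 117 in MYC (log2 1.21 ± 0.18, limma adjusted p = 1.7e-08). UTP15 and WDR75 were counted in both WT libraries on a transcript that no other library used, and the part of that switch in their changes was not tested. HEATR1, the large HEAT-repeat scaffold, rose 2.87-fold.

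The UTP-B complex, which binds the 5′ part of the precursor together with U3, rose in all 6 members with a median log2 difference of 1.43. WDR3 had the largest change, with 26.5 and 27.0 CPM in WT, 43.8 and 49.6 in Zab, 71.0 and 70.2 in Zab+MYC, and 113 and 115 in MYC. Its groups did not overlap, and MYC exceeded WT 4.05-fold (log2 2.02 ± 0.19, limma adjusted p = 9.7e-15). TBL3 changed least, from 70.0 and 107 CPM in WT to 155 and 140 in MYC (log2 0.75 ± 0.15, limma adjusted p = 1.3e-05). Its Zab libraries, at 92.5 and 93.6 CPM, lay inside the range of WT. UTP18 stood at 50.5 and 32.8 CPM in WT, 43.8 and 49.0 in Zab, 65.7 and 51.0 in Zab+MYC, and 93.9 and 113 in MYC, so that the Zab+MYC libraries lay just above the highest library of WT and Zab, and MYC stood clear of the rest. PWP2, UTP6 and WDR36 rose with MYC by log2 1.52, 1.34 and 1.81. The spans of WDR3, PWP2 and TBL3 overlap another gene, and whether the counting used strand was not given in the sources used here.

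The U3 snoRNP protein and the MPP10 module that docks with it rose in all 5 members. RRP9 (chromosome 3, 51967445 to 51975920), the protein specific to the U3 snoRNP, had the largest change. It stood at 34.7 and 35.5 CPM in WT, 55.2 and 49.6 in Zab, 168 and 153 in Zab+MYC, and 215 and 199 in MYC. The groups fell into a low pair without overexpressed MYC and a high pair with it. MYC exceeded WT 5.64-fold (log2 2.50 ± 0.16, limma adjusted p = 2e-23). MPHOSPH10 itself rose 2.43-fold, and its partners IMP4 and IMP3 rose 3.56- and 2.14-fold. IMP3, the least changed of the module, stood at 49.2 and 67.8 CPM in WT, 66.0 and 62.4 in Zab, 102 and 111 in Zab+MYC, and 119 and 133 in MYC. Its WT and Zab libraries overlapped. UTP3 rose 2.39-fold.

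Among the 15 other early factors 14 were called higher in MYC than in WT, with a median log2 difference of 1.63. NOP14, which recruits EMG1, had the largest change, with 26.5 and 21.2 CPM in WT, 43.0 and 55.7 in Zab, 70.1 and 80.1 in Zab+MYC, and 110 and 107 in MYC. Its groups were separate and its rise was 4.30-fold (log2 2.11 ± 0.20, limma adjusted p = 5.2e-15). PDCD11, the human RRP5, rose 3.94-fold from 64.3 and 53.5 CPM to 246 and 229. RCL1, a factor carried by the GTPase BMS1, stood at 8.83 and 7.42 CPM in WT and 33.2 and 37.7 in MYC, a 3.70-fold rise. The lengths of the transcripts on which RCL1 was counted differed by up to 1.41 times between libraries. BMS1 rose 2.74-fold and the RNA acetyltransferase NAT10 2.55-fold. UTP11, UTP14A, UTP20, NOL6, NOC4L, DCAF13, RRP7A and KRR1 rose by 2.42- to 3.63-fold.

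A pair of the early factors stood apart from this. The pseudouridine methyltransferase EMG1 stood at 134 and 164 CPM in WT, 151 and 160 in Zab, 184 and 220 in Zab+MYC, and 192 and 205 in MYC. Its rise with MYC was 1.33-fold (log2 0.41 ± 0.12, limma adjusted p = 0.0022), and without WT replicate 1 it was no longer called. WDR46 (chromosome 6, 33246885 to 33257016) stood at 8.20 and 12.7 CPM in WT, 12.2 and 20.8 in Zab, 18.0 and 16.3 in Zab+MYC, and 9.81 and 15.9 in MYC. All but Zab+MYC overlapped WT, and the log2 difference of MYC and WT was 0.25 ± 0.36 (limma adjusted p = 0.58). WDR46 had the fewest tags of the set, 104.5 over 8 libraries. Its locus is counted on transcripts with several copies in the annotation, so tags may be split between them.

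The late factors, which act on the particle that becomes the small subunit, were all called higher in MYC, 5 of 5 with a median log2 difference of 1.73. RRP12 (chromosome 10, 99116114 to 99161127), an export factor, stood at 32.8 and 34.4 CPM in WT, 88.9 and 86.3 in Zab, 153 and 144 in Zab+MYC, and 202 and 218 in MYC. All 4 groups were separate, and MYC exceeded WT 5.94-fold (log2 2.57 ± 0.15, limma adjusted p = 2.8e-25). NOB1, the endonuclease that makes the last cut of the small-subunit RNA, rose 3.20-fold, from 127 and 122 CPM to 398 and 407. LTV1, an assembly and export factor, stood at 13.2 and 15.4 CPM in WT, 38.7 and 30.6 in Zab, 29.7 and 43.2 in Zab+MYC, and 49.0 and 54.7 in MYC. Zab and Zab+MYC overlapped for LTV1, while MYC exceeded WT 3.31-fold. TSR1, a GTPase-like late factor, rose 3.78-fold. BYSL, a factor bound to the late precursor, changed least of the late factors, from 54.3 and 39.7 CPM in WT to 135 and 147 in MYC (log2 1.56 ± 0.16, limma adjusted p = 4.3e-14).

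The most abundant transcripts of the set were those of snoRNP proteins. The 3 box C/D core proteins in the set were all called higher in MYC than in WT, and the core protein SNU13 is described further on. Per kilobase of counted transcript, the highest levels in WT were 421 ± 26.0 CPM for FBL (SD, n = 2), 268 ± 16.9 for NOP10, 233 ± 3.99 for NHP2, 124 ± 1.07 for NOP56 and 73.3 ± 1.85 for NOB1. At the other end UTP15 stood at 1.45 and KRR1 at 2.43 CPM per kilobase. NOP10 and NHP2 did not overlap in WT, and neither did the other neighbours in that order. FBL, or fibrillarin (chromosome 19, 40325098 to 40337019), is the methyltransferase of the particle. It stood at 446 and 487 CPM in WT, 636 and 610 in Zab, 969 and 985 in Zab+MYC, and 1274 and 1324 in MYC. NOP56 (chromosome 20, 2633278 to 2639039), one of the paired scaffold proteins, stood at 236 and 233 CPM in WT, 435 and 457 in Zab, 735 and 748 in Zab+MYC, and 1056 and 1048 in MYC. Its partner NOP58 stood at 126 and 108 CPM in WT, 175 and 141 in Zab, 269 and 273 in Zab+MYC, and 428 and 445 in MYC. All 4 groups were separate for each of the 3 genes. MYC exceeded WT by log2 1.47 ± 0.060 for FBL, 2.16 ± 0.069 for NOP56 and 1.88 ± 0.11 for NOP58 (limma adjusted p = 2.6e-34, 1.6e-40 and 1.6e-25).

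Box H/ACA proteins rose in 5 of 5 members, by unequal amounts. DKC1, or dyskerin (chromosome X, 153991017 to 154005964), the pseudouridine synthase, stood at 130 and 118 CPM in WT, 209 and 193 in Zab, 337 and 352 in Zab+MYC, and 488 and 497 in MYC. Its groups were separate and its rise with MYC was 3.93-fold (log2 1.97 ± 0.097, limma adjusted p = 2.7e-29). GAR1, which contacts the catalytic domain, rose 3.66-fold, from 47.3 and 51.4 CPM to 193 and 179. NHP2, another core protein of the particle, moved less, from 195 and 200 CPM in WT to 283 and 321 in MYC (log2 0.61 ± 0.099, limma adjusted p = 2.5e-07). NOP10, the smallest core protein, stood at 149 and 136 CPM in WT, 280 and 293 in Zab, 300 and 262 in Zab+MYC, and 331 and 359 in MYC. Zab and Zab+MYC overlapped for NOP10. NAF1, an assembly factor that GAR1 replaces in the mature particle, stood at 10.1 and 9.54 CPM in WT, 4.30 and 13.5 in Zab, 15.1 and 19.8 in Zab+MYC, and 16.3 and 30.9 in MYC. The 2 MYC libraries of NAF1 differed by about as much as the means of MYC and WT did, and its call in MYC against WT (log2 1.06 ± 0.38, limma adjusted p = 0.014) was lost without WT replicate 2 or MYC replicate 2, with no filter, and with DESeq2.

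The nucleolar phosphoproteins NOLC1 and TCOF1 chaperone snoRNPs and RNA polymerase I. NOLC1 (chromosome 10, 103911933 to 103923628) had the largest response of all 46 genes. It stood at 91.5 and 82.6 CPM in WT, 159 and 152 in Zab, 321 and 308 in Zab+MYC, and 559 and 585 in MYC. MYC exceeded WT 6.45-fold (log2 2.69 ± 0.10, limma adjusted p = 8.8e-36), with all 4 groups separate. TCOF1, or treacle, stood at 111 and 102 CPM in WT, 115 and 131 in Zab, 271 and 255 in Zab+MYC, and 349 and 351 in MYC, a 3.25-fold rise from WT to MYC.

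**Figure D2:**
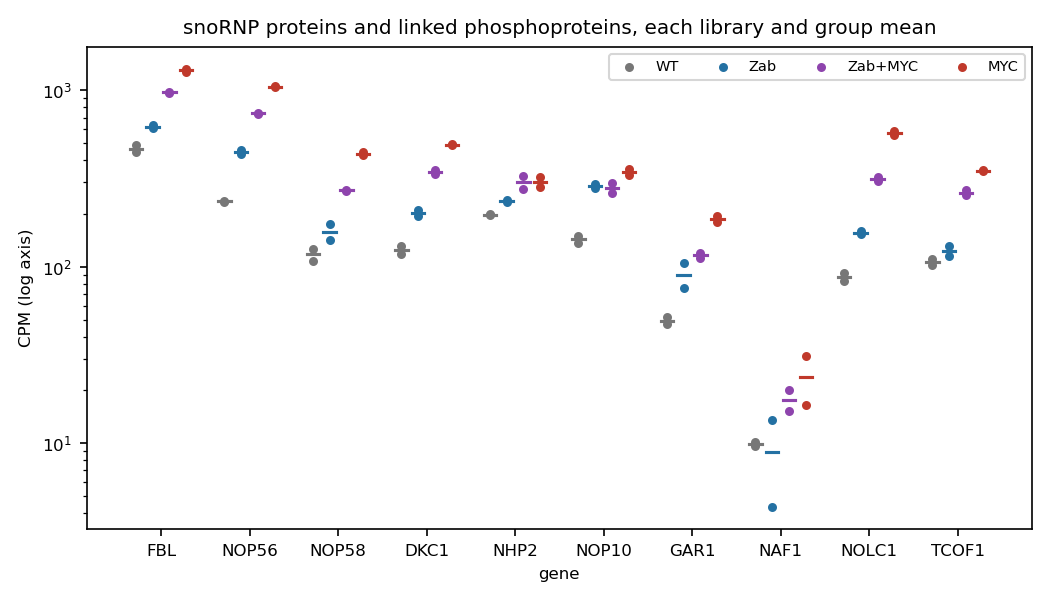
CPM on a log axis of the 8 snoRNP proteins and of NOLC1 and TCOF1, with 1 point per library and a bar at each mean of 2 libraries, for WT, Zab, Zab+MYC and MYC. The groups are separate for FBL, NOP56, NOP58, DKC1, GAR1, NOLC1 and TCOF1, while the Zab and Zab+MYC libraries overlap for NOP10 and the MYC and Zab+MYC libraries for NHP2; on the scale as deposited FBL, NOP58, NHP2, NAF1 and TCOF1 lie lower in Zab than in WT.

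In the presence of Zab the rise with MYC was smaller. Of the 46 genes, 33 were called higher in Zab+MYC than in Zab and none lower, where 14.3% of tested genes were called higher. The median log2 difference was 0.59 (range −0.03 to 1.58), against −0.01 over all tested genes, and the libraries did not overlap for 41 genes against 30.0% of tested genes. With DESeq2 15 of the genes were called, at a median log2 difference of 0.58. The share of all tested genes called with DESeq2 was not counted. A loss of calls in these genes thus cannot be told from fewer calls in general. Without Zab+MYC replicate 2 fewer of the 46 were also called, at a median of 0.59. RRP9 had the largest rise, 2.99-fold (log2 1.58 ± 0.16, limma adjusted p = 3.1e-13), followed by TCOF1 at 2.12-fold, NOLC1 at 2.01-fold, NAF1 at 1.96-fold and TSR1 at 1.87-fold. The call of NAF1 (limma adjusted p = 0.049) was lost under 13 of the 20 alternatives. The 13 genes not called included NOP10, with a log2 difference of −0.03 ± 0.099, NOL6 with 0.05 ± 0.19 and LTV1 with 0.06 ± 0.26. Of the box C/D proteins all 3 were called higher, and of UTP-A 4 of 5, at a median log2 of 0.60. Of the other early factors 8 of 15 were called, at a median of 0.37.

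The difference between the MYC effects was tested as an interaction, the effect of MYC with Zab minus that without. It was called below 0 for 39 of the 46 genes and above 0 for none, where 13.3% of tested genes were called below 0. The median was −1.03 (range −2.04 to −0.04), against 0.02 over all tested genes. It was lowest for WDR43, at −2.04 ± 0.20 (limma adjusted p = 1.3e-13), whose rise with MYC was 6.22-fold without Zab and 1.52-fold with it. RRP12 followed at −1.82 and NOLC1 at −1.68, then LTV1 at −1.67, PDCD11 at −1.64, UTP15 at −1.63, RCL1 at −1.60, NOL6 at −1.52, NOP14 at −1.51 and GAR1 at −1.5. By role the medians ran from −0.90 in UTP-B to −1.37 in UTP-A. The 7 genes not called were TBL3, MPHOSPH10, IMP3, WDR46, EMG1, NHP2 and NAF1, with values from −0.64 to −0.04. In 45 genes the log2 difference was positive in both MYC comparisons and smaller with Zab. MYC and ADAR transcripts also had interactions below 0 with TMM scaling, at −2.16 ± 0.13 and −2.39 ± 0.083. Their part in the interaction of the 46 genes was not tested.

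**Figure D3:**
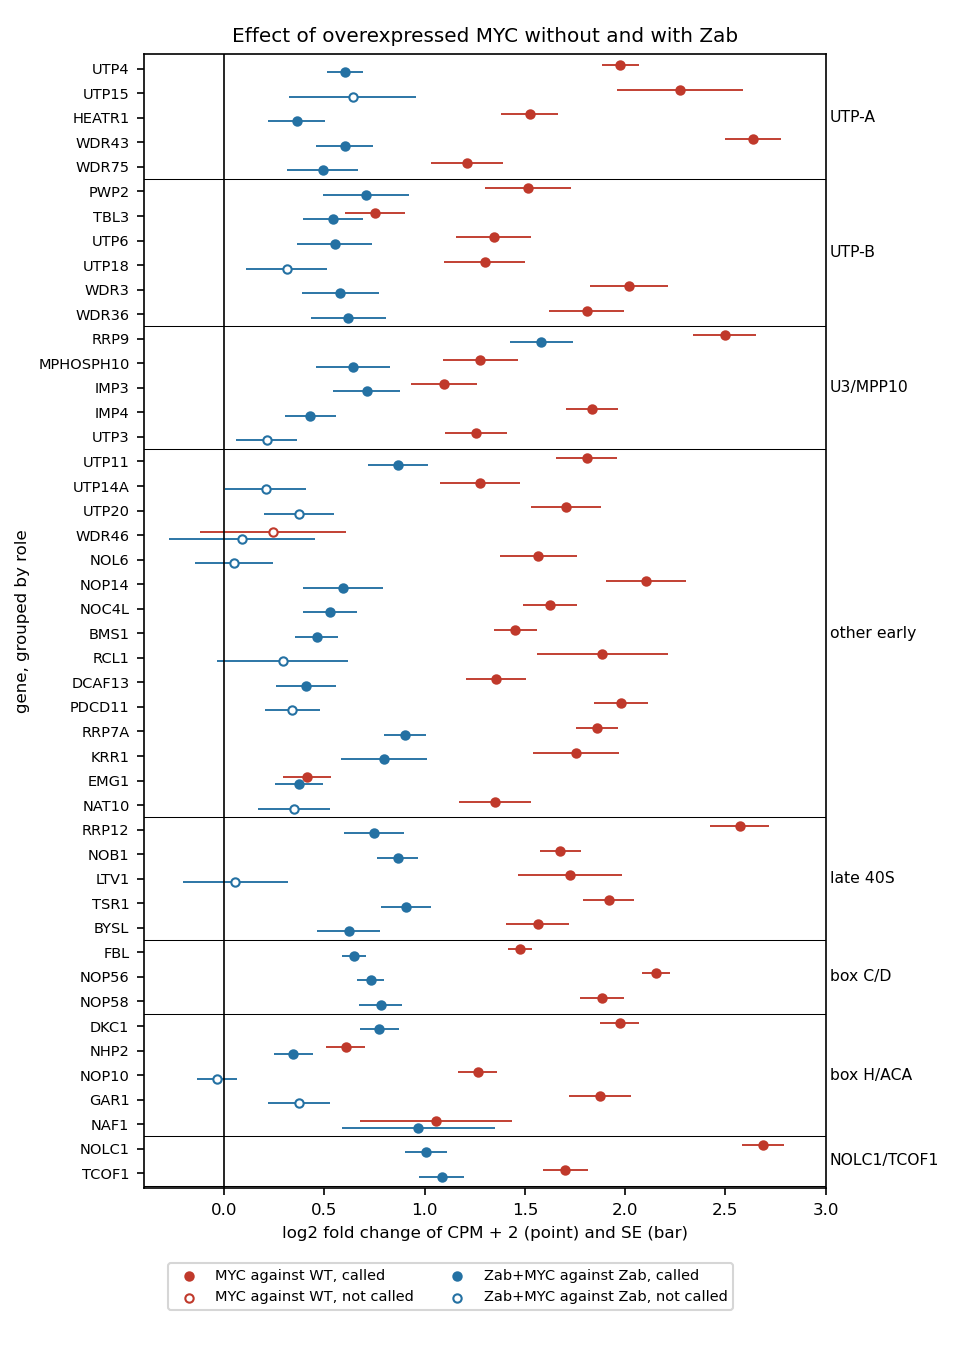
Log2 difference of CPM + 2 (points) and its SE (bars) for MYC against WT in red and Zab+MYC against Zab in blue, for the 46 genes by role, with filled points called by limma and open points not called. The red points lie to the right of the blue for each gene, with a median of 1.69 against 0.59.

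Zab alone was accompanied by higher relative levels of most of the genes. With TMM scaling 33 were called higher in Zab than in WT and none lower, where 13.1% of tested genes were called higher, but on the scale as deposited 12 were called higher and 5 lower, where 2.59% of tested genes were called higher and 49.3% lower, and 15 of the 46 had turned negative. The median log2 difference was 0.58 (range −0.26 to 1.41) with TMM and 0.09 as deposited. Over all tested genes the median was 0.00 with TMM and −0.51 as deposited, so the 46 genes lay above the median of all genes by 0.60 on the deposited scale. The libraries did not overlap for 36 genes with Zab higher, against 29.8% of tested genes. DESeq2 called 19 of the 46, at a median log2 difference of 0.64, and its share of all tested genes was not counted. WDR43 had the largest rise, 2.65-fold (log2 1.41 ± 0.14, limma adjusted p = 3.2e-13), then RRP12 at 2.52-fold, NOL6 at 2.33-fold, LTV1 at 2.24-fold and UTP4 at 2.10-fold. These 5 were called higher on the deposited scale too. With TMM scaling UTP-A and the late factors were called higher in 5 of 5 members each and UTP-B in 2 of 6, and on the deposited scale in 2 of 5, 3 of 5 and 0 of 6. EMG1, TBL3, IMP3, TCOF1 and NHP2, which were not called with TMM, were the 5 called lower on the deposited scale, with log2 differences of −0.48, −0.43, −0.38, −0.33 and −0.28.

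With MYC overexpressed in both groups, Zab went with lower levels. Of the 46 genes, 26 were called lower in Zab+MYC than in MYC and none higher, where 8.14% of tested genes were called lower. The median log2 difference was −0.45 (range −0.86 to 0.40), against 0.00 over all tested genes. The libraries did not overlap for 40 genes with Zab+MYC lower, against 30.2% of tested genes, and on the deposited scale 43 genes were called lower, where 30.5% of tested genes were called lower and the median of all tested genes was −0.31. Without MYC replicate 2 or without Zab+MYC replicate 2, fewer of the 46 genes were called with TMM scaling. Their median log2 difference was −0.49 in each of these fits, and the share of all tested genes called was not counted. NOLC1 had the largest fall, 1.81-fold (log2 −0.86 ± 0.10, limma adjusted p = 4.1e-10), then UTP18 at 1.76-fold, PDCD11 at 1.63-fold, NOP58 at 1.61-fold and WDR3 at 1.60-fold. All 3 box C/D genes were called lower and 3 of 5 in UTP-A, the late group and box H/ACA. BYSL and NHP2 stood at 98.7% and 99.7% of their MYC level in Zab+MYC. Over the set this percentage ran from 55.0 in NOLC1 to 134 in WDR46, with a median of 72.8, and its median over all tested genes was 100.1. The log2 difference of MYC transcripts in the same comparison was −0.84 ± 0.091 with TMM scaling.

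**Figure D4:**
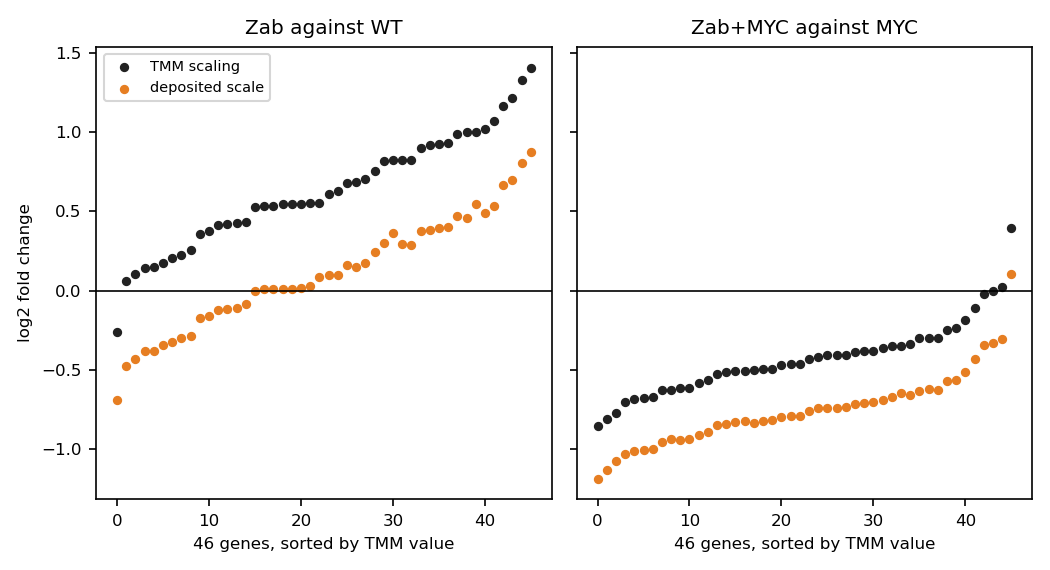
Log2 differences of the 46 genes, sorted by their TMM value, for Zab against WT (left) and Zab+MYC against MYC (right), with TMM scaling in black and the scale as deposited in orange. On the left 15 genes pass from above to below 0 on the deposited scale, and on the right the median moves from −0.45 to −0.78.

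Against WT, the cells with both factors still had more of nearly every transcript. In Zab+MYC 44 of the 46 genes were called higher than in WT and none lower, where 21.6% of tested genes were called higher, with a median log2 difference of 1.21 (range 0.43 to 2.13). On the deposited scale 38 were called higher, against 10.5% of tested genes, with a median of 0.83 against −0.37 over all tested genes. All 46 had separate libraries, with Zab+MYC above WT. The share of all tested genes that did so was not counted for this comparison. The count of 46 therefore has no general rate to be set against. In the comparisons where such shares were counted they ran from 29.8% to 37.6%. That of Zab+MYC against MYC, 30.2%, is for lower levels. They do not stand in for the missing share. RRP9 rose most, by log2 2.13 ± 0.16 (limma adjusted p = 1.4e-19), a 4.38-fold rise, then RRP12 at 4.22-fold, WDR43 at 4.02-fold, NOLC1 at 3.56-fold and UTP4 at 3.19-fold. WDR46 and NAF1 were not called, with log2 differences of 0.64 ± 0.36 and 0.71 ± 0.38. The comparisons share libraries, so their values are given side by side and no overlap between them was counted.

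**Figure D5:**
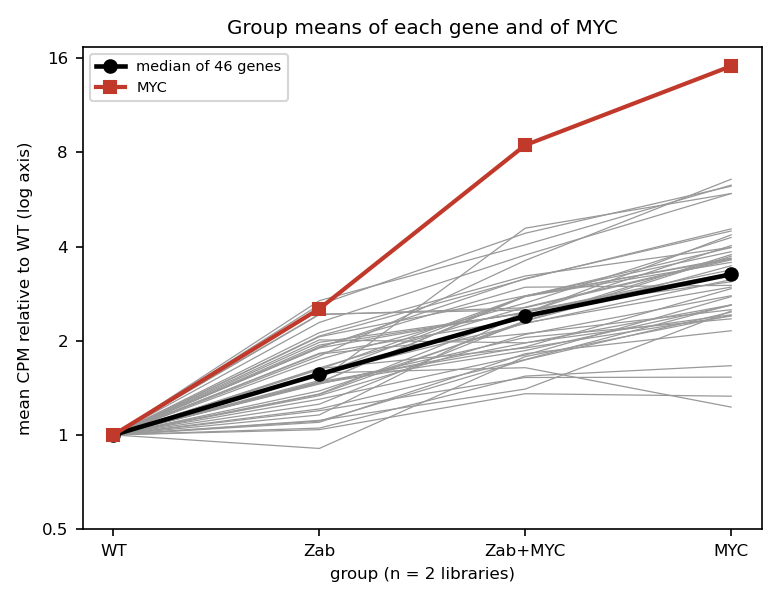
Mean CPM relative to WT on a log axis, for WT, Zab, Zab+MYC and MYC (2 libraries each), with a grey line per gene, the median of the 46 genes in black and MYC in red. The median rises through the groups as MYC does and over a smaller range. Of the 42 genes in this order, 28 also have it on the scale as deposited. There 16 of the 46 lie lower in Zab than in WT, and the share of all tested genes that do so was not counted.

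Most other genes of the same pathways were also called higher with MYC. Of 27 further small-subunit assembly genes, 25 were called higher in MYC than in WT and none lower, with a median log2 difference of 1.32. The largest was PNO1, the partner of NOB1, at 2.40 ± 0.20, and the smallest TRMT112, a methyltransferase cofactor, at 0.22 ± 0.092. C1D and TSR2 were not called. With Zab present 14 of the 27 were called higher with MYC, and 10 were called lower in Zab+MYC than in MYC. Of 10 further snoRNP and snoRNP assembly genes, 7 were called higher in MYC than in WT, at a median of 1.25, and PIH1D1, a member of the R2TP chaperone complex, was called lower at −0.79 ± 0.23. The largest rise was that of ZNHIT6, a box C/D assembly factor, at 2.17 ± 0.27. SNU13, the box C/D core protein that binds the kink-turn, rose from 314 and 295 CPM in WT to 1206 and 1240 in MYC, and stood at 946 and 831 in Zab+MYC, with its groups separate. The interaction was called below 0 for 13 of the 27 and 6 of the 10 genes, and above 0 for none. Of all tested genes, 27.8% were called higher and 30.4% lower in MYC than in WT. With Zab present 14.3% were called higher with MYC, and 8.14% were called lower in Zab+MYC than in MYC. The interaction was called below 0 for 13.3% of them and above 0 for 14.6%.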

How the data were processed

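RNA of U2OS cells was sequenced in 8 libraries. The submitters' processing notes name Trim Galore 0.6.6, STAR (version not given in the sources used here) and HOMER 4.11.1, and the builds dm6 and hg19 without a role for either. Per the file headers, HOMER counted raw tags over exons of RefSeq coding genes on hg19, with 1 transcript for each symbol. The deposited signal equals tags multiplied by a factor set for each library, because 100% of values were whole steps within 0.1 step. How that factor was set was not given in the sources used here. The file headers name a spike-in folder. A tag was taken as 2 steps, an assumption that puts exon tags at 60.6% to 76.1% of the header total. Of the 46 genes, 34 were counted on 1 transcript throughout and 12 on several, and 9 have spans that overlap another gene, namely HEATR1, PWP2, TBL3, WDR3, KRR1, EMG1, TSR1, NHP2 and TCOF1.

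Recovered tags were filtered with filterByExpr (9673 genes), scaled with TMM and taken to log2(CPM + 2). Fold changes are on that scale, which understates changes of low genes. limma 3.58.1 with a trend of spread on level was fitted to all 8 libraries with 4 residual degrees of freedom, two-sided, with Benjamini-Hochberg adjustment over all genes and calls at 0.05. The spread was moderated with 67.2 prior degrees of freedom, so very small p-values rest on spread pooled over genes. The common dispersion in edgeR was 0.000171, close to counting noise alone. Nothing in the labels says that libraries of a group are separate cultures, so the p-values measure spread between these libraries only, and it may be technical. An exact permutation test of 2 against 2 cannot go below p = 0.333. Tested on data simulated for MYC against WT over 9673 genes with 200 changed, limma called 74% of 2-fold and 24% of 1.5-fold changes, with 1.01% of calls false. The simulation used a larger dispersion than the one fitted here and changed only genes above a set level. In these data 2692 genes were called higher and 2941 lower in that comparison, far more than were changed in the simulation. The simulated rates therefore do not carry over to these libraries or to scarce genes.

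The 46 genes and the lists were chosen with earlier results of these data known. Genes named are, in each role, the largest and smallest in MYC against WT, the 5 highest levels per length, the 10 largest interactions, the 5 largest in each other comparison, any not called in MYC against WT and any called lower, with EMG1 and further genes given for completeness. Alternatives were RLE scaling, library totals, the deposited scale, a filter of 5 CPM in 2 libraries, no filter, pseudocounts of 1 and 5, edgeR 4.0.16 and DESeq2 1.42.0 on recovered tags, a replicate block, the 4 libraries compared alone, 1 transcript in all libraries, and each of 8 libraries left out. R 4.3.3, Python 3.11.15, numpy 2.4.6, pandas 2.3.3 and matplotlib 3.10.9 were used. Coordinates of genes are hg19 as deposited, and those of promoter windows are GRCh38 from RefSeq. The reference genome, of another build than the tables, was not used.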

Additional observations from a re-analysis of the deposited data

Results flagged for a closer look

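The effect of MYC differed between cells with and without Zab, by the interaction term of the limma fit, in 39 of the 46 genes, all with the smaller effect in the presence of Zab. The 10 lowest values were −2.04 for WDR43, −1.82 for RRP12, −1.68 for NOLC1, −1.67 for LTV1, −1.64 for PDCD11, −1.63 for UTP15, −1.60 for RCL1, −1.52 for NOL6, −1.51 for NOP14 and −1.5 for GAR1, on the log2 scale. The call of UTP15 was lost with DESeq2, and the other 9 kept theirs wherever an adjusted p was given. MYC transcripts in the 2 groups that overexpress it stood at 1263 CPM without Zab and 706 CPM with Zab, and in the groups that do not at 83.7 and 212 CPM.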

How the results depend on the processing

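Each of the 6 counts of called genes kept its direction with RLE scaling, library totals, either filter, either pseudocount and edgeR. With DESeq2 15 genes were called in Zab+MYC against Zab and 19 in Zab against WT, in place of 33 and 33. Shares of all tested genes called were counted for the main fit and the deposited scale only. A loss of calls under any other alternative may therefore not be particular to these genes. On the deposited scale the median log2 difference of the 46 genes against WT moved to 0.09 for Zab and 0.83 for Zab+MYC, and that of Zab+MYC against MYC to −0.78. There 43 were called in Zab+MYC against MYC and 17 (12 higher, 5 lower) in Zab against WT. On that scale the Zab against WT values of called genes turned to −0.16 for BMS1, −0.0019 for DCAF13, −0.11 for NOB1, −0.13 for FBL and −0.12 for NOP58, and genes not called before were called lower, at −0.43 for TBL3, −0.38 for IMP3, −0.48 for EMG1, −0.28 for NHP2 and −0.33 for TCOF1. EMG1 was also called lower in Zab+MYC against MYC, at −0.31. With single libraries left out, where the lone library of a group is assumed to vary like the others, counts ran from 44 to 45 in MYC against WT, 21 to 35 in Zab+MYC against Zab, 15 to 30 in Zab+MYC against MYC, 42 to 44 in Zab+MYC against WT, 36 to 38 in the interaction and 27 to 34 in Zab against WT. Restricted to the 34 genes on 1 transcript throughout, 34 were called in MYC against WT. Of the called genes, 43 in MYC against WT, 37 in Zab+MYC against WT, 31 in the interaction, 14 in Zab+MYC against Zab, 12 in Zab against WT as well as 11 in Zab+MYC against MYC were called under every alternative that tested them. Deviations of libraries with the same replicate number correlated by −0.0226 to 0.0143 between groups, so no shared deviation was seen. With spread close to counting noise, this cannot show whether the libraries were prepared in pairs. With the replicate block 45 genes were called in MYC against WT, 32 in Zab+MYC against Zab, 28 in Zab+MYC against MYC, 44 in Zab+MYC against WT, 39 in the interaction and 35 in Zab against WT. Depth limits WDR46, NAF1, RCL1 and UTP15, each with 104.5 to 179.5 tags over 8 libraries. The cause of the shifts with DESeq2 and the deposited scale was not tested.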
